A study of Homo sapiens with 20 samples.

Results

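The butyrophilin cluster of chromosome 6 holds 5 genes that are the subject of this account: BTN2A1, BTN2A2, BTN3A1, BTN3A2 and BTN3A3. They were taken by name from the gene column of the deposited count table, and all 5 were found among its 43366 genes. Messenger RNA was sequenced from clones of U2OS, a human osteosarcoma cell line, in 4 groups of 5 libraries: WT clones left untreated, the same WT clones after 24 h with 250 U/ml interferon gamma (IFNγ), clones labelled ZBTB48 KO left untreated, and those clones after the same treatment. ZBTB48 is a zinc finger protein that binds telomeric repeats and a set of promoters, among them a promoter of CIITA. Each replicate is 1 clone, and the same clones were sampled with and without IFNγ, so that a difference between WT and KO labels is also a difference between 2 sets of clones. BTN2A2 is a reported target of CIITA, and the question put to the data was whether it differed between genotypes in a way that its neighbours did not.

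Butyrophilins are membrane proteins of the immunoglobulin superfamily related to the B7 costimulators. BTN3A1 and BTN2A1 together present the state of the mevalonate pathway to human γδ T cells that carry the Vγ9Vδ2 receptor: phosphoantigens such as isopentenyl pyrophosphate bind the intracellular B30.2 domain of BTN3A1, and BTN2A1 binds the γ chain of the receptor. BTN3A3 also carries a B30.2 domain, BTN3A2 lacks one, and BTN2A2 is known as an inhibitor of T cell activation. IFNγ acts through JAK kinases on IRF1, and on 2 transactivators without a DNA-binding domain of their own, NLRC5 for MHC class I genes and CIITA for MHC class II genes, which dock on regulatory factor X and NF-Y at the X and Y boxes of their target promoters.

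In GRCh38, the build of the deposited coordinates, all 5 genes lie on the plus strand of chromosome 6, in the order BTN3A2 (26365169 to 26378320), BTN2A2 (26383108 to 26394874), BTN3A1 (26402275 to 26415208), BTN3A3 (26440504 to 26453415) and BTN2A1 (26457955 to 26476622). Their counts are sums over exons, which cover 4125 bases in BTN3A2, 5832 in BTN2A2, 7699 in BTN3A1, 2970 in BTN3A3 and 3620 in BTN2A1. Of the exon bases of BTN2A1, 471 are shared with LOC285819 on the minus strand, and the strand setting of the counting is not given in the sources used here. The paralogs are close: 2.78% of the 150-base windows of the BTN3A3 exons, 2.59% of those of BTN3A2 and 1.30% of those of BTN3A1 recur exactly in exons of another gene of the family, and none of the windows of BTN2A1 or BTN2A2 do. A read within such a window has no unique place by itself, and only uniquely mapped reads were counted, so such reads can be missing from the BTN3A counts. A mate outside the window can still place a read pair, so these shares do not measure the loss.

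The promoter table of RefSeq (GRCh38.p14) held 1 promoter for BTN2A1, 2 for BTN3A2 and 1 for BTN3A3, and BTN2A2 and BTN3A1 were not matched. The 150 bases upstream of the start are shown for 1 promoter of each matched gene because the letters AGCAAC, the core of the X box, and CCAAT, the Y box, on either strand, lie near each other in all 3. Capitals mark those letters, and ATTGG is CCAAT read on the other strand.
BTN2A1, chr6:26457805-26457954, plus strand: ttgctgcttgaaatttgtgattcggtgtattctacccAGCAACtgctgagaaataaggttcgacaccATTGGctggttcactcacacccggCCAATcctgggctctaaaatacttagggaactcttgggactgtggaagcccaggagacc
BTN3A2, chr6:26365048-26365197, plus strand: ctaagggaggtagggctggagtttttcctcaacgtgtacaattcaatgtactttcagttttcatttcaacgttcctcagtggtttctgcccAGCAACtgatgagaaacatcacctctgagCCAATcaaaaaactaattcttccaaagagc
BTN3A3, chr6:26440354-26440503, plus strand: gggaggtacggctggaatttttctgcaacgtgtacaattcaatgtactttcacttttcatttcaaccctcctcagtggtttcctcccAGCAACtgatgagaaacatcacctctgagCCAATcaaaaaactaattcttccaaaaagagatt

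In BTN2A1 the bases AGCAAC ended 108 bases before the start and were followed by ATTGG after 24 bases, with CCAAT at -59. In BTN3A2 they ended at -54 and in BTN3A3 at -58, each followed by CCAAT after 23 bases. These 2 promoters were identical at 82.6% of aligned positions, so they do not count as separate occurrences. The second promoter of BTN3A2 held no such pair. AGCAAC on the strand of the gene, with CCAAT on either strand within the next 40 bases, occurred in 171 of the 35116 promoters of the table (0.487%). On either strand AGCAAC by itself was in 12.8% and CCAAT in 34.6%, so these shares are not on the same footing as that of the pair. The letters TTAGGG, the telomeric repeat that ZBTB48 binds, were found only in the promoter of BTN2A1 among the 4, at -37, against 9.05% of all promoters. GAAANNGAA, the pattern of interferon-regulatory-factor sites, was found only in that of BTN3A3, 37 bases after the start on the minus strand, against 8.11% of promoters. Single motifs were searched on both strands over 250 bases before to 50 after the start, and a match describes letters, not a bound site.

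Total counts per library ran from 46652288 to 72952859, so that 3 counts, used as the floor, correspond to 0.0404 to 0.0610 CPM. Levels are CPM, counts divided by the library total after the TMM scaling of edgeR, and with bulk RNA fewer cells that express a gene and less RNA per cell cannot be told apart. ZBTB48 itself was at 8.03 to 11.6 CPM in the 10 WT libraries. Of the libraries labelled KO, replicates 1, 2, 4 and 5 lay between 1.29 and 5.27 CPM, but replicate 3 held 11.3 CPM untreated and 15.8 CPM treated, so that its ZBTB48 mRNA was not lower than in WT. MTFP1, a gene that depends on ZBTB48, was at 0.223 to 0.938 CPM in all 10 libraries labelled KO, replicate 3 included, and at 27.2 to 53.1 CPM in WT. Treated and untreated libraries of a WT clone deviated together from their groups over 21052 genes (Pearson's r from 0.54 to 0.74), as did those of KO replicates 1, 2 and 3 (0.53 to 0.74). Those of KO replicates 4 and 5 did not (-0.04 and 0.02), while each treated library of the pair correlated with the untreated library of the other (0.46 and 0.55). Tests on clone pairs are therefore also given with the treated libraries of these 2 clones exchanged, which leaves group means as they are. RUNX2, SPARC and COL1A1, markers of the osteoblast lineage, were at 18.4 CPM or more in every library, whereas COL1A2 stayed at or under 0.945 CPM and the osteoblast genes SP7 and BGLAP at or under 0.116 CPM. Of the leukocyte markers, the T cell receptor gene TRGC1 had 0 counts throughout, CD3E stayed at or under 0.0652 CPM and PTPRC at or under 0.950 CPM. The highest of these markers was ITGAM, at or under 1.95 CPM. Of 3 epithelial markers KRT8 was at 30.3 to 647 CPM, EPCAM at 0.118 to 12.7 CPM and CDH1 at 0.0184 to 4.58 CPM.

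The members differed in abundance and in how far their levels reached across clones. Compared per kilobase of exon, BTN3A2 led in all 10 treated libraries, at 15.9 ± 4.42 CPM per kb in WT and 14.1 ± 4.17 in libraries labelled KO (mean ± SD, n = 5 clones throughout). BTN3A3 was next in all 10 (9.47 ± 2.26 and 7.23 ± 2.22) and BTN2A2 last in all 10 (2.09 ± 0.48 and 1.55 ± 0.48). BTN3A1 (5.15 ± 1.36 and 4.4 ± 1.5) and BTN2A1 (4.32 ± 0.89 and 4.54 ± 0.66) stood between them, and their order changed from library to library, so these neighbours did not differ beyond their spread. In untreated cells BTN2A1 and BTN3A2 were highest, at 3.74 ± 0.68 and 3.62 ± 1.77 CPM per kb in WT and 3.87 ± 0.32 and 2.97 ± 1.56 in libraries labelled KO, with the first place shared out among clones. BTN3A3, BTN2A2 and BTN3A1 lay between 0.927 and 1.70 CPM per kb on average in both genotypes, and their order varied among clones as well.

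**Figure D1:**
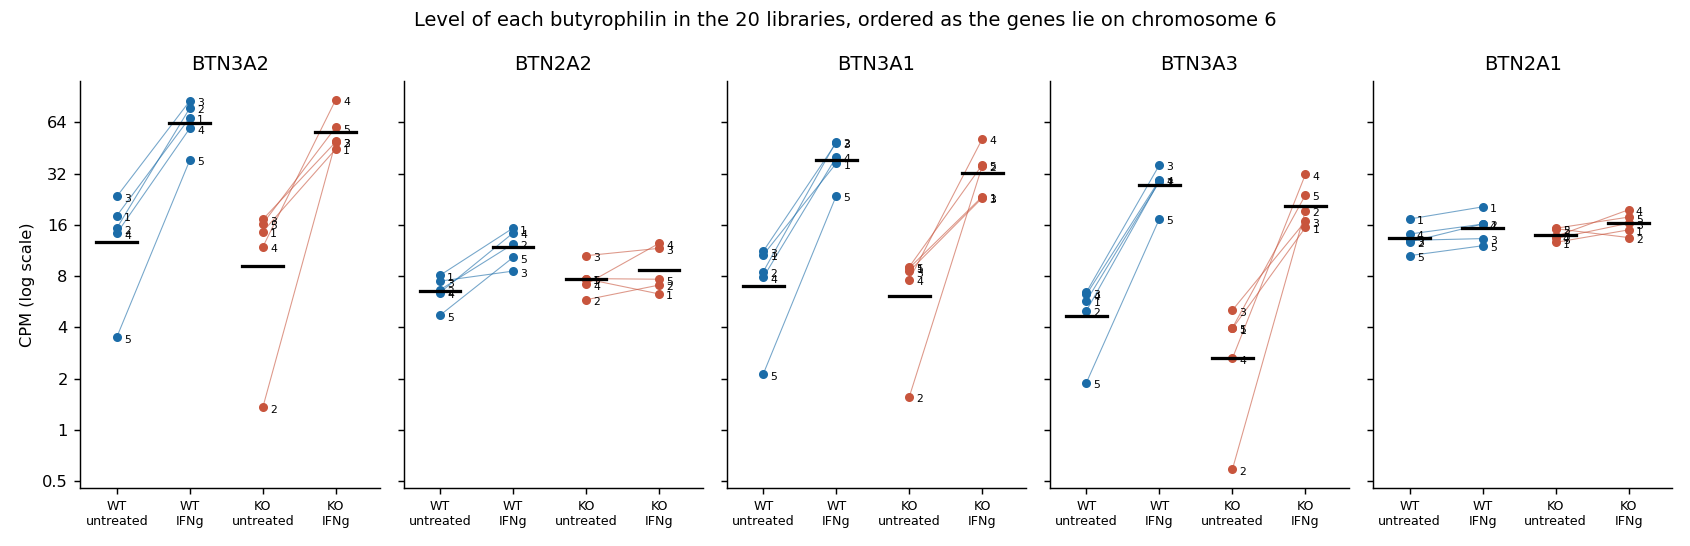
CPM of each gene in every library (log scale), with numbers for the replicates, lines between the untreated and treated library of a clone as labelled, and black bars for the mean of log2 CPM. The BTN3A genes are higher with IFNγ in every clone, with low untreated values in WT replicate 5 and KO replicate 2, the BTN2A1 groups overlap, and BTN2A2 is higher in every treated WT clone but reaches its highest KO values in treated replicates 3 and 4.

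The 3 BTN3A genes were higher after IFNγ in every clone of both genotypes, and 5 of these 6 comparisons of groups passed the test, all but that of BTN3A2 in clones labelled KO. BTN3A1, the phosphoantigen sensor, stood at 10.7, 8.49, 11.2, 7.86 and 2.13 CPM in untreated WT replicates 1 to 5 and at 36.8, 49.4, 48.5, 40.03 and 23.7 CPM in the treated ones. In libraries labelled KO it stood at 8.92, 1.56, 8.54, 7.61 and 9.06 CPM untreated and at 23.4, 35.5, 23.0, 51.2 and 36.0 CPM treated. The lowest treated library was above the highest untreated one in both genotypes, and untreated WT replicate 5 and KO replicate 2 lay far below their groups. The fitted log2 fold change was 2.31 (SE 0.38, adjusted p = 0.00255, edgeR quasi-likelihood test with Benjamini-Hochberg adjustment over all genes tested) in WT and 2.24 (SE 0.42, adjusted p = 0.00901) in clones labelled KO.

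BTN3A2, the member without a B30.2 domain, stood at 18.1, 15.3, 23.5, 14.3 and 3.51 CPM in untreated and at 68.2, 77.7, 85.6, 59.1 and 38.4 CPM in treated WT replicates 1 to 5. In libraries labelled KO the values were 14.6, 1.36, 17.2, 11.9 and 16.3 CPM untreated and 44.7, 49.5, 49.2, 87.2 and 60.0 CPM treated. The treated and untreated libraries did not overlap in either genotype. Its log2 fold change was 2.15 in WT (SE 0.40, edgeR adjusted p = 0.00579) and 2.24 in clones labelled KO (SE 0.51, edgeR adjusted p = 0.0216). The last value missed the cut-off of 0.01, although its size did not differ from that of BTN3A1 beyond the standard errors.

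BTN3A3 had the largest fitted change of the 5 genes in both genotypes. It stood at 5.72, 5.01, 6.44, 6.25 and 1.90 CPM in untreated and at 28.8, 29.1, 36.0, 29.4 and 17.4 CPM in treated WT replicates 1 to 5. In libraries labelled KO it stood at 3.94, 0.587, 5.05, 2.63 and 3.98 CPM untreated, the second value resting on 29 counts, and at 15.4, 19.4, 16.8, 31.7 and 24.0 CPM treated. The groups again did not overlap. The log2 fold change was 2.49 (SE 0.31, edgeR adjusted p = 0.000478) in WT and 2.73 (SE 0.46, edgeR adjusted p = 0.00536) in clones labelled KO.

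A gene was called when its adjusted p was under 0.01 and its change more than 2-fold. In WT clones 3 of the 5 members, the BTN3A genes, were called higher after IFNγ, against 2.48% of the 19522 genes tested. In clones labelled KO 2 of 5, BTN3A1 and BTN3A3, were called higher, against 1.7% of 19385 genes. At an adjusted p under 0.05 with no minimum fold the members were 4 of 5 in WT (background 6.98%), where BTN2A2 joined, and 3 of 5 in clones labelled KO (5.41%), where BTN3A2 joined. BTN2A2 missed that cut-off in WT without replicate 1, 2 or 4, and passed it without replicate 3 or 5. Treated and untreated libraries did not overlap for 4 of 5 members in WT, the BTN3A genes and BTN2A2 (6.68% of genes were higher without overlap), and for 3 of 5 in libraries labelled KO, the BTN3A genes (6.07%).

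The calls on the BTN3A genes depended on single clones although the size of the change hardly did. Without WT replicate 1, 2, 3 or 4 only BTN3A3 was called in WT, with log2 fold changes of the BTN3A genes between 2.05 and 2.56 over the omissions. DESeq2, the study's test, with or without shrinkage, and 1 edgeR fit over all 20 libraries called all 3 BTN3A genes in clones labelled KO, with BTN3A2 at adjusted p = 8.0e-05 (DESeq2) and 0.00534 (edgeR). Without KO replicate 1, 3, 4 or 5 no member was called in clones labelled KO, while without replicate 2, the clone with the lowest untreated values, 3 were, and over the omissions the log2 fold changes ran from 1.97 to 3.03. With the clone as a block BTN3A1 in clones labelled KO had an edgeR adjusted p of 0.0119, or 0.0139 with replicates 4 and 5 exchanged, and 1 member was called in place of 2.

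Within a clone the BTN3A genes rose by factors that differed widely. In WT clones BTN3A1 rose 3.45-fold to 11.1-fold, BTN3A2 3.64-fold to 10.9-fold and BTN3A3 4.70-fold to 9.14-fold, in each case most in replicate 5. In clones labelled KO the highest factors were those of replicate 2, at 22.7-fold for BTN3A1, 36.2-fold for BTN3A2 and 32.6-fold for BTN3A3, and the lowest were 2.62-fold, 2.85-fold and 3.32-fold. The treated level of BTN3A1 and BTN3A2 in KO replicate 2 lay within the range of the other treated libraries labelled KO, so the high factor went with the low untreated level.

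BTN2A1, the ligand of the γ chain, changed little. It stood at 17.3, 12.7, 12.98, 14.1 and 10.6 CPM in untreated and at 20.4, 16.2, 13.3, 16.2 and 12.1 CPM in treated WT replicates 1 to 5. In libraries labelled KO it stood at 12.6, 15.2, 13.3, 13.7 and 15.3 CPM untreated and at 14.95, 13.5, 16.4, 19.6 and 17.8 CPM treated. The groups overlapped in both genotypes. The log2 fold change with IFNγ was 0.22 in WT (SE 0.18, edgeR adjusted p = 0.50) and 0.23 in clones labelled KO (SE 0.14, edgeR adjusted p = 0.36), with 5 of 5 WT and 4 of 5 KO clones above their untreated library. With the clone as a block the WT value had an edgeR adjusted p of 0.029, at the same size of 0.22.

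BTN2A2, the reported target of CIITA, was higher after IFNγ in the WT clones by less than 2-fold and short of a call, and no change was detected in the clones labelled KO. It stood at 8.09, 6.65, 7.48, 6.41 and 4.71 CPM in untreated and at 15.3, 12.3, 8.56, 14.3 and 10.3 CPM in treated WT replicates 1 to 5. In libraries labelled KO it stood at 7.71, 5.81, 10.5, 7.17 and 7.74 CPM untreated and at 6.29, 7.09, 11.6, 12.5 and 7.67 CPM treated. The WT groups did not overlap, by a narrow gap at replicate 3, while the KO groups overlapped, with treated replicates 3 and 4 inside the range of the treated WT libraries. Replicate 3, whose ZBTB48 mRNA was not lowered but whose MTFP1 was at 0.938 CPM untreated and 0.284 CPM treated, was the highest for BTN2A2 among the untreated libraries labelled KO. Among the treated ones the highest was replicate 4, with ZBTB48 at 3.84 CPM. Whether BTN2A2 followed ZBTB48 mRNA among these clones was not tested. The log2 fold change was 0.88 in WT (SE 0.21, edgeR adjusted p = 0.0182), which met neither the p nor the size that a call needed, and 0.21 in clones labelled KO (SE 0.24, edgeR adjusted p = 0.66). With the clone as a block the WT value kept its size of 0.88 at an edgeR adjusted p of 0.00028, still short of 2-fold. When each WT clone was left out the log2 fold change ran from 0.81 to 1.04. It was more than 2-fold only without replicate 3 (edgeR adjusted p = 0.021). The edgeR adjusted p was 0.054, 0.087 and 0.091 without replicates 1, 2 and 4, and 0.037 without replicate 5. No omission met the p that a call needed.

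**Figure D2:**
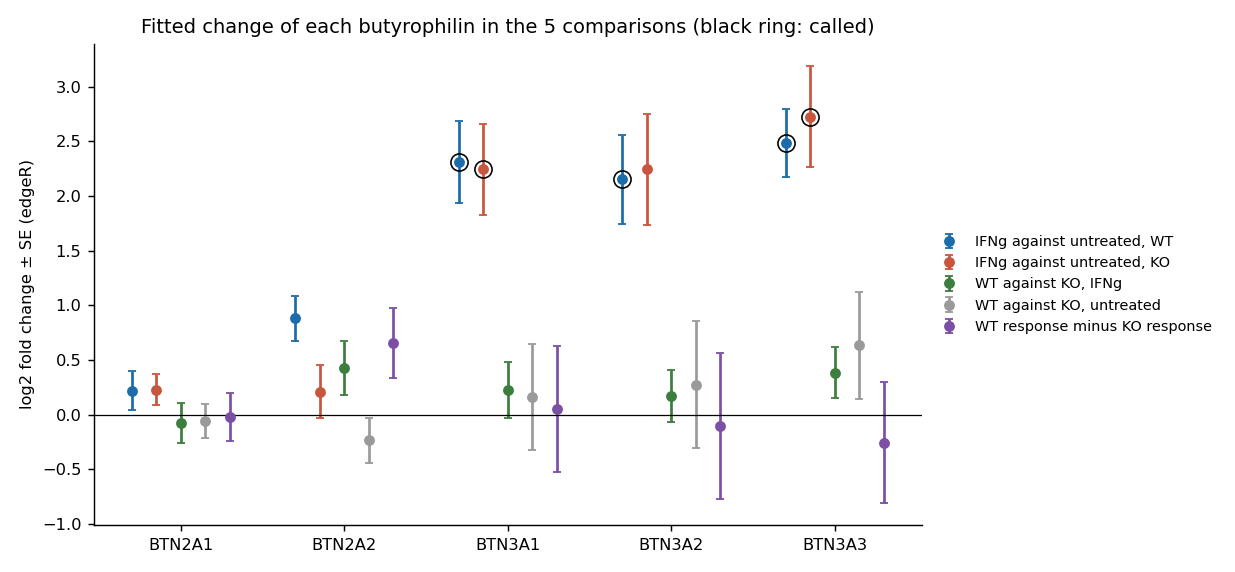
Fitted log2 fold changes of edgeR (points) with standard errors (bars) for each gene in the 5 comparisons, where a black ring marks a call. The 3 BTN3A genes lie between 2.15 and 2.73 with IFNγ in both genotypes, and the comparisons of WT with KO labels lie between -0.23 and 0.63.

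None of the 5 genes was called between genotypes. In treated libraries the log2 fold changes of WT against KO labels were 0.43 (SE 0.25) for BTN2A2, 0.39 (SE 0.24) for BTN3A3, 0.23 (SE 0.26) for BTN3A1, 0.18 (SE 0.24) for BTN3A2 and -0.08 for BTN2A1, and each edgeR adjusted p was 0.996. Over all genes 3 of 19383 were called (0.0155%), and 843 had an unadjusted p under 0.05. In untreated libraries they were -0.23 (SE 0.21) for BTN2A2, 0.63 (SE 0.49) for BTN3A3, 0.27 (SE 0.58) for BTN3A2, 0.17 (SE 0.49) for BTN3A1 and -0.06 for BTN2A1, with edgeR adjusted p values of 0.980 to 0.991, where 3 of 19505 genes were called (0.0154%). No member separated the genotypes without overlap, which 0.805% of genes did in treated and 1% in untreated libraries. BTN2A2 was the only member whose fitted difference changed sign between untreated and treated libraries, a trait named after the values were seen. Its unadjusted edgeR p was 0.284 in untreated and 0.108 in treated libraries, so neither difference passed a test. How many of all genes changed sign in this way was not counted.

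The difference in BTN2A2 between treated groups was within the spread of the clones when tested by itself. Its mean log2 CPM was 3.57 ± 0.34 in treated WT and 3.12 ± 0.44 in treated KO libraries, a difference of 0.45 (two-sided exact permutation test over all arrangements of 5 against 5 libraries, p = 0.119, unadjusted), and 2.72 ± 0.30 and 2.94 ± 0.31 in untreated libraries, a difference of -0.22 (exact permutation p = 0.294). The smallest p this design allows is 0.00794. Without KO replicate 3, whose ZBTB48 mRNA was not lower than in WT but whose MTFP1 was low, the fitted difference between treated groups was 0.54 (SE 0.26, unadjusted p = 0.0610 and adjusted p = 0.997 with edgeR). When each clone was left out that difference ran from 0.32 to 0.57. The neighbours gave exact permutation p values of 0.151 (BTN3A3), 0.381 (BTN3A1), 0.516 (BTN3A2) and 0.619 (BTN2A1) in treated libraries. For comparison CIITA was 3.23 higher on the log2 scale in treated WT than in treated KO libraries (exact permutation p = 0.00794).

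The clone responses of BTN2A2 were larger on average in WT clones than in clones labelled KO in an unadjusted test of 5 genes, but the difference did not pass in the fit across all genes. Its log2 CPM rose by 0.92, 0.89, 0.20, 1.16 and 1.13 in WT replicates 1 to 5, while the values for KO replicates 1 to 5 were -0.29, 0.29, 0.14, 0.80 and -0.01. All 5 WT clones and 3 of 5 clones labelled KO were above their untreated library, and the ranges overlapped through WT replicate 3 and KO replicates 2 and 4. The means were 0.86 ± 0.39 and 0.18 ± 0.40, a difference of 0.67 (two-sided exact permutation test, p = 0.0238, unadjusted). Swapping the treated samples of KO clones 4 and 5 cannot change the difference, and 4 of 5 clones labelled KO were then above their untreated library. The 4 neighbours gave exact permutation p values of 0.897 (BTN2A1), 0.952 (BTN3A1), 0.762 (BTN3A2) and 0.587 (BTN3A3), and with the swap of 0.889, 0.952, 0.778 and 0.587. In the fit across all genes the difference in response of BTN2A2 was 0.66 (SE 0.32, unadjusted p = 0.0524 and adjusted p = 1.00 with edgeR), and the other members lay between -0.25 and 0.06, all at an edgeR adjusted p of 1.00. With the clone as a block it was 0.68 for BTN2A2 (SE 0.23, unadjusted p = 0.0125 with edgeR), or 0.68 (SE 0.21, unadjusted p = 0.0050 with edgeR) with the swap, and the edgeR adjusted p was still 1.00 and 0.999. The fit without the block called 0 of 21052 genes (0%), and edgeR gave 86 genes an unadjusted p under 0.05 and DESeq2 115. Those are fewer than the share of 0.05 that would fall there if no gene differed. With the clone as a block edgeR gave 317, or 584 with the swap, also fewer and with 0 called. A high adjusted p in these fits is therefore no sign that the responses were equal. No member had clone responses without overlap between genotypes, against 0.404% of genes. When each clone was left out the difference in clone responses of BTN2A2 stayed between 0.56 and 0.84, and the exact permutation p was 0.0556 to 0.0635 without WT replicate 1, 2, 4 or 5 or KO replicate 1, 3 or 5.

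**Figure D3:**
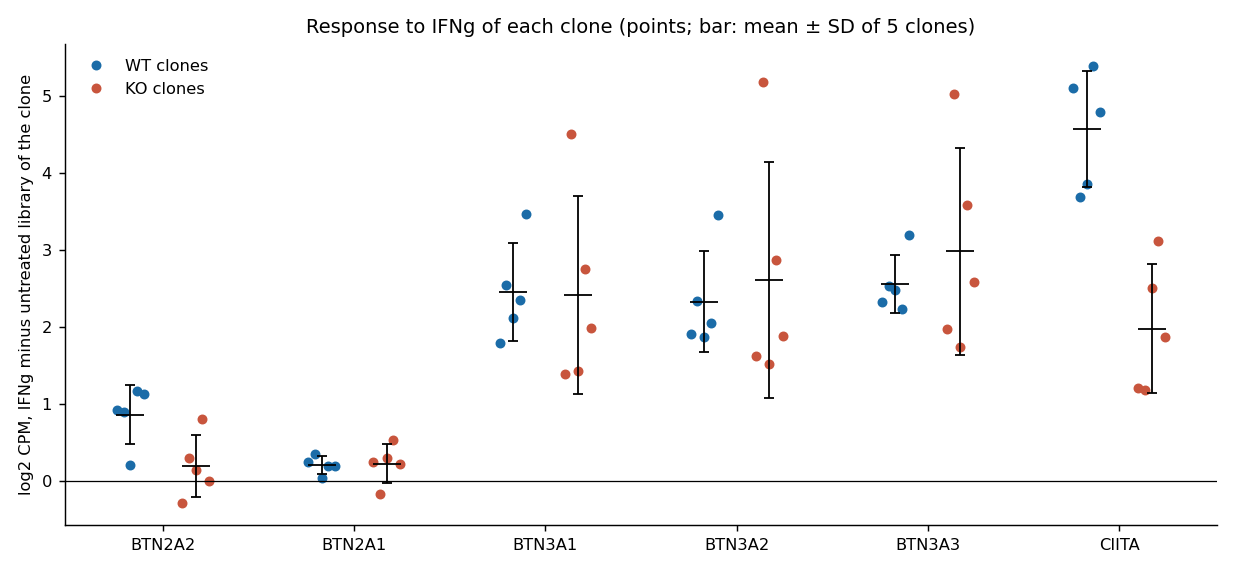
Response of each clone to IFNγ, as log2 CPM of the treated minus the untreated library with the labelled pairs, for the 5 genes and for CIITA, with the mean ± SD of 5 clones in black. The WT clones (blue) average 0.86 for BTN2A2 against 0.18 in clones labelled KO (red), the genotypes overlap for all 5 members, and for CIITA they do not overlap.

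A ratio of 2 genes within a library does not depend on how the library was scaled, and the ratio of BTN2A2 to BTN2A1, the other BTN2 gene, separated the treated groups most among the 4 treated ratios. In treated libraries the ratio of CPM was 0.750, 0.762, 0.644, 0.886 and 0.854 in WT replicates 1 to 5 and 0.420, 0.526, 0.712, 0.635 and 0.432 in KO replicates 1 to 5. The groups overlapped only through KO replicate 3 and WT replicate 3. On the log2 scale the means were -0.37 ± 0.18 and -0.91 ± 0.33, a difference of 0.54 (two-sided exact permutation test, p = 0.0159, and 0.127 after Benjamini-Hochberg adjustment over the 8 ratios tested). When each clone was left out it ran from 0.45 to 0.64 (exact permutation p from 0.00794 to 0.0397), the highest without KO replicate 3, the library that made the groups overlap. In untreated libraries the means were -1.03 ± 0.16 and -0.87 ± 0.39, a difference of -0.16 (exact permutation p = 0.452, adjusted 0.603).

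Relative to the BTN3A genes BTN2A2 was lower in treated than in untreated libraries on average in both genotypes. The log2 ratio to BTN3A1 was -0.10 ± 0.70 in untreated and -1.69 ± 0.55 in treated WT libraries, and 0.33 ± 0.90 and -1.89 ± 0.54 in libraries labelled KO. In treated libraries the difference between genotypes was 0.20 for BTN3A1, 0.28 for BTN3A2 and 0.05 for BTN3A3, with exact permutation p values of 0.548, 0.373 and 0.865. In untreated libraries the ratio to BTN3A3 was 1.05 lower in WT (0.49 ± 0.49 against 1.54 ± 1.00, exact permutation p = 0.0317, adjusted 0.127), to which KO replicate 2, with its 29 counts of BTN3A3, contributed the highest ratio. Without that clone the value was -0.61 and the exact permutation p = 0.0556. Thus 2 of 8 ratios had an unadjusted exact p under 0.05 and none after adjustment.

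**Figure D4:**
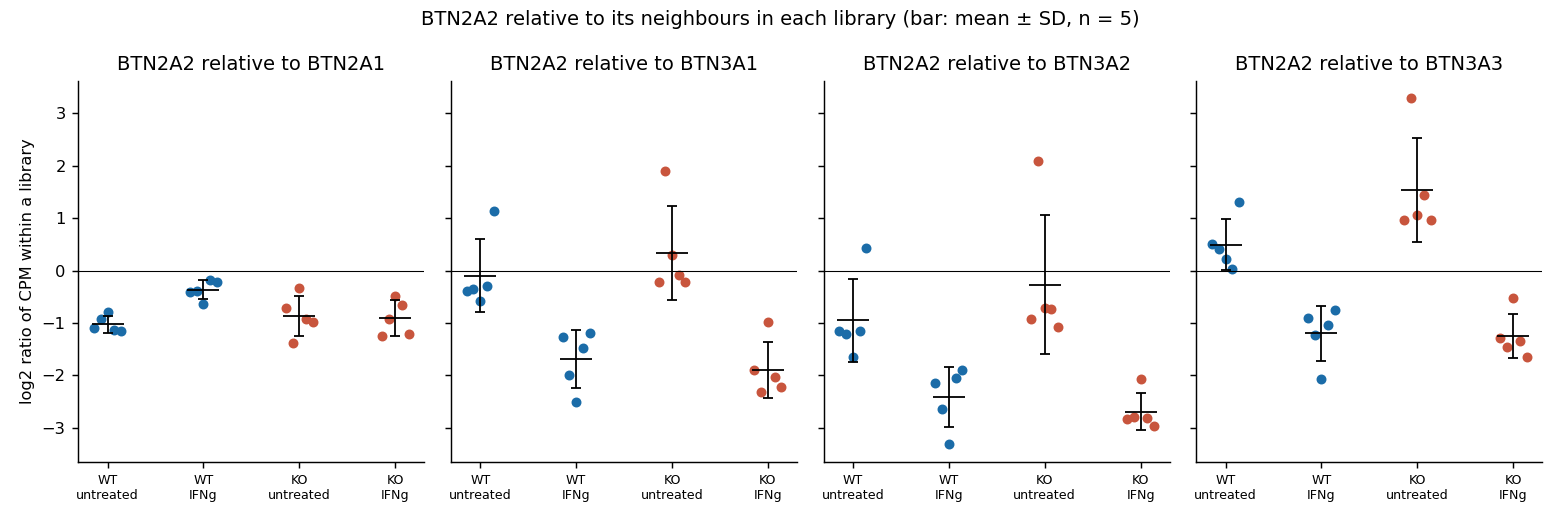
Log2 ratio of the CPM of BTN2A2 to that of each neighbour within every library (points), with the mean ± SD of 5 libraries in black. For BTN2A1 the treated WT libraries average -0.37 and the treated KO libraries -0.91, and for the BTN3A genes both genotypes average lower with IFNγ.

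A list of 22 regulators held receptor chains, kinases and transcription factors of the IFNγ pathway and reported regulators of butyrophilins. Of these, 7 were called higher in WT with IFNγ, against 2.48% of all genes tested (median log2 fold change 0.37 over the 22, all genes -0.03). In clones labelled KO 6 were called higher, against 1.7% of all genes tested (median 0.37, all genes -0.03). None was called lower, and none was called between genotypes. Among those called in WT were IRF1 (4.96), CIITA (4.66) and NLRC5 (3.69), and in clones labelled KO IRF1 (4.72), NLRC5 (3.77) and IRF8 (3.09). NLRC5, the MHC class I transactivator, went from 13.1 ± 1.71 to 168 ± 36.7 CPM in WT and from 10.6 ± 3.59 to 145 ± 44.5 CPM in libraries labelled KO, and its clone responses overlapped between the genotypes (exact permutation p = 0.817, and 0.802 with KO clones 4 and 5 swapped). RFX5, a subunit of regulatory factor X, was at 96.2 ± 7.68 CPM in treated WT and 77.3 ± 6.998 CPM in treated KO libraries (log2 fold change 0.31, SE 0.11, edgeR adjusted p = 0.996), a gene named after its values were seen. CIITA stood at 107, 55.2, 38.2, 89.6 and 106 CPM in treated WT replicates 1 to 5 and at 3.05, 6.12, 11.1, 18.8 and 7.45 CPM in treated KO replicates 1 to 5. The lowest treated WT library for CIITA was replicate 3, also the lowest for BTN2A2, and the 2 highest KO libraries were replicates 4 and 3, also the 2 highest for BTN2A2. Other libraries went the other way: WT replicate 5 was second highest of the WT libraries for CIITA and second lowest for BTN2A2, and KO replicates 3 and 4 held less CIITA than WT replicate 3 but more BTN2A2. The clone responses of CIITA were 4.57 ± 0.76 and 1.97 ± 0.84 (exact permutation p = 0.00794, the same with KO clones 4 and 5 swapped), without overlap, while the fit across all genes did not call the difference (2.44, edgeR adjusted p = 1.00).

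The MHC class II genes are the established targets of CIITA, and all those tested had a positive log2 fold change with IFNγ. It was at least 1.73 in WT and 0.73 in clones labelled KO. In WT 11 of 13 tested were called higher, against 2.48% of all genes (median log2 fold change 6.86, all genes -0.03). In clones labelled KO 2 of 9 were called higher, CD74 (8.65) and HLA-DRA (9.19), against 1.7% of genes (median 3.08). Fewer of these genes had enough counts to be tested in clones labelled KO, so the 2 counts and medians cover different sets. The largest in WT were CD74 (11.63), HLA-DRA (10.79), HLA-DRB1 (9.94) and HLA-DOA (7.09). Between treated genotypes all 14 were tested, some of which had enough counts only in the treated WT libraries. These 14 had a median of 3.53, and 0 were called by edgeR, with adjusted p values from 0.227 for HLA-DMB upwards. CIITA itself was not called by edgeR either (log2 fold change 3.08, edgeR adjusted p = 0.0951). The study's test, DESeq2, called 16 genes in that comparison, or 6 with shrinkage, against 3 with edgeR. With DESeq2 the paper reports CIITA, HLA-DQB1, HLA-DMB and HLA-DMA as significantly higher in treated WT clones. BTN2A2, at 0.43 in that comparison, ranked 1723rd and CIITA 24th of 19383 genes by fold change.

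Of 9 further members of the butyrophilin family, 8 were in the count table, and BTN1A1, BTNL3 and MOG had at most 6 counts in any library. BTN2A3P, the pseudogene between BTN3A1 and BTN3A3, lay between 0.301 and 1.49 CPM, ERMAP between 8.91 and 17.9 CPM and BTNL9 between 1.47 and 13.9 CPM. None of the 4 tested in WT or the 3 tested in clones labelled KO was called with IFNγ, with log2 fold changes from -0.41 to 0.36, a range that also holds BTN2A1, and none was called between genotypes.

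Of 13 genes listed with the mevalonate pathway and phosphoantigen handling, none was called in any of the 5 comparisons. Not all of the 13 make, consume or carry phosphoantigen. Their median log2 fold change with IFNγ was -0.45 in WT and -0.47 in clones labelled KO, against -0.03 over all genes in each. FDPS, which consumes isopentenyl pyrophosphate, had 0.00 in WT and -0.12 in clones labelled KO. ABCA1, which exports phosphoantigen, had -1.15 and -1.60 without a call (edgeR adjusted p = 0.21 and 0.083). Between genotypes their median was -0.15 in treated and -0.17 in untreated libraries.

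Within 250000 bases of the cluster lie 68 further genes of the count table, most of them histone and transfer RNA genes, and 14 had enough counts to be tested. None was called in the 4 comparisons between 2 groups. With IFNγ their log2 fold changes ran from -0.87 to 0.44 (median -0.15) in WT and from -0.72 to 0.52 (median 0.03) in clones labelled KO, all below those of the 3 BTN3A genes, while BTN2A1 lay within that range in both genotypes and BTN2A2 above it in WT only.

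**Figure D5:**
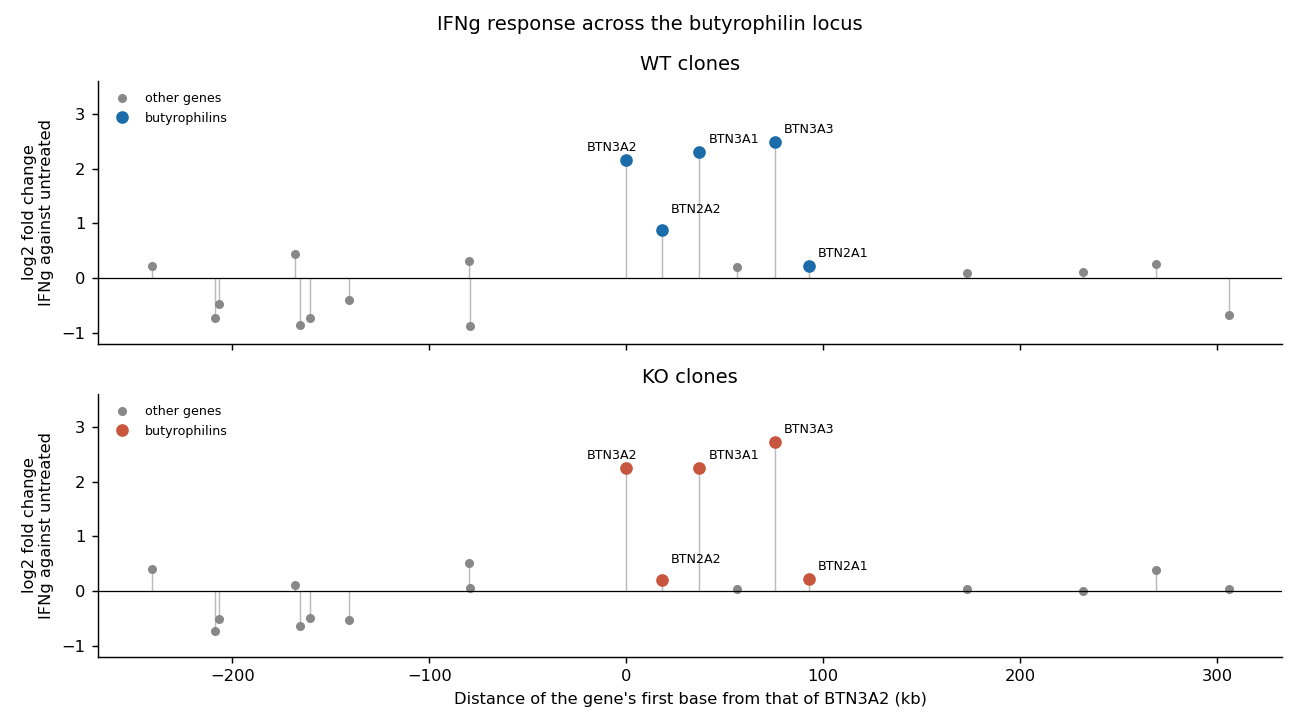
Log2 fold change with IFNγ of the tested genes within 250000 bases of the cluster, by the distance in kb of each gene's first base from that of BTN3A2, in WT clones (top) and clones labelled KO (bottom). The 3 BTN3A genes stand above 2 in both panels, BTN2A2 stands at 0.88 in WT and 0.21 in clones labelled KO, and the grey genes stay between -0.87 and 0.52.

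The genes whose levels over the 10 treated libraries were most like each member, among 19382 genes, were the following. For BTN2A2 the first 5 were HLA-DRB1 (Pearson's r = 0.904, Spearman's rho = 0.891), HLA-DRA, CD74 (0.892 and 0.879), PAEP (0.884 and 0.891) and HLA-DPA1 (0.872 and 0.891), of which 4 are MHC class II genes. HLA-DRA was without overlap between the genotypes, as was CIITA, so no pooled r is given for them. HLA-DRB1 was at 74.5, 49.7, 12.98, 87.0 and 27.0 CPM in treated WT and at 0.495, 1.13, 5.56, 14.4 and 0.885 CPM in treated KO replicates 1 to 5. Part of each r therefore comes from the step between genotypes, and without the 2 libraries farthest from the median of BTN2A2 the 4 given values were 0.803, 0.797, 0.884 and 0.760 over 8 libraries.

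For BTN3A3 the list held BTN3A1 first (r = 0.929, rho = 0.927) and BTN3A2 as the third (0.919 and 0.879), with ACSL3-AS1, LOC124902868 and C1QTNF1. For BTN3A2 TAPBPL, a homolog of the peptide-loading chaperone tapasin, was first (0.936 and 0.915), followed by PKIB, BTN3A3, BTN3A1 and PIGM. For BTN3A1 the genes were FUNDC2, P2RY8, BTN3A3, BTN3A2 and GDPGP1, with r from 0.939 to 0.915. For BTN2A1 they were CPAMD8, ATF6B, SUCO, ZWILCH and ETV3, with r from 0.944 to 0.912 and none of the cluster. BTN2A2 correlated with BTN2A1 at 0.517 and with BTN3A3, BTN3A2 and BTN3A1 at 0.482, 0.373 and 0.314. The points are clones that share their library preparation and treatment, and these values are descriptions over 10 libraries.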

How the data were processed

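RNA of 20 U2OS libraries (5 clones in each of 4 groups) was sequenced as stranded mRNA. Per the submitters' processing notes the authors used STAR 2.7.9a, featureCounts 2.4.0 and GRCh38. They kept uniquely mapped reads and deposited raw counts of 43366 genes without normalization. The members and gene lists were chosen with earlier results of these data known, and no test is independent of them.

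Counts were scaled by TMM and tested with the robust quasi-likelihood test of edgeR 4.0.16 (R 4.3.3) after filterByExpr, each comparison on its own 10 libraries and the difference between responses on all 20. A call needed an adjusted p under 0.01 and more than 2-fold, as in the study, whose DESeq2 test was run as an alternative (version 1.42.0). Positive values are higher with IFNγ, in WT, or for the WT response. For single values, log2 CPM (prior count 0.5) entered a two-sided exact permutation test. P-values measure the spread between clones of 1 cell line. The fits were tested on simulated counts. Genes named are the 5 members, the regulators a result turns on, at most 4 called genes of a list with the largest change, and the 5 genes most like each member over the treated libraries. Some listed genes are not reported here by name. ABCA1, FDPS and the low family members were named after their values were seen. Treated and untreated libraries of a clone are paired by their labels, and deviated together (r from 0.53 to 0.74) except in KO replicates 4 and 5. WT and KO clones share only a number (r from -0.20 to 0.19). The strand setting of the counting is not given in the sources used here. Alternatives were other scalings, DESeq2, no filter, no robust fit, other cut-offs, replicate blocks, 1 fit over all 20 libraries and leaving out each clone. Likeness over the untreated libraries and the motif pair were added after the data were seen. Promoters are those of RefSeq (GRCh38.p14). Totals ran from 46652288 to 72952859 counts.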

Additional observations from a re-analysis of the deposited data

Results flagged for a closer look

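The gap between the extreme library and its nearest neighbour, as a share of the range of a group of 5, was compared with Dixon's critical value of 0.71 in 46 groups of levels, responses and ratios, and 12 were above it, where chance gives about 1 in 20. The groups share libraries, so the 12 are not independent.

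Untreated WT replicate 5 was apart at the low end for BTN3A1 (0.787), BTN3A2 (0.738) and BTN3A3 (0.795), and therefore at the high end for BTN2A2 relative to BTN3A1 (0.833) and to BTN3A2 (0.762). Untreated KO replicate 2 was apart at the low end for BTN3A1 (0.900) and BTN3A2 (0.853), and at the high end for BTN2A2 relative to BTN3A1 (0.749), BTN3A2 (0.885) and BTN3A3 (0.792). Both clones reached BTN3A levels of 17.4 CPM or more after IFNγ. In treated libraries KO replicate 3, with ZBTB48 mRNA at 15.8 CPM and above every WT library, was apart at the high end for BTN2A2 relative to BTN3A2 (0.813). WT replicate 3 was apart at the low end for the response of BTN2A2 (0.722). What sets these clones apart was not tested.

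The response of BTN2A2 differed between the genotypes by 0.67 on the log2 scale in the exact permutation test over clones (p = 0.0238, unadjusted, with a rise in 5 of 5 WT clones against 3 of 5 with the KO label), but not past the threshold in the fit over all genes (edgeR, adjusted p = 1.00). That fit leaves out the clone pairs and gave few small p-values over all genes.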

How the results depend on the processing

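The counts of members called depended on the clones and on the fit. In WT with IFNγ it was 3 and ran from 1 to 3 when each clone was left out (1 without replicate 1, 2, 3 or 4), and was 2 with no filter on low counts. In clones labelled KO it was 2, ran from 0 to 3 when each clone was left out, and was 1 with library totals, with no filter on low counts and with the replicate block, by clone or with replicates 4 and 5 exchanged, but 3 with DESeq2, with or without shrinkage, and in 1 fit over all 20 libraries. No member was called between genotypes or for the difference between responses under any alternative, the replicate block by clone or number included (0 each). The difference in response of BTN2A2 was 0.67, a value that pairing cannot change (exact p = 0.0463 when libraries were permuted within treatment without pairs), and 0.56 to 0.84 when each clone was left out, with exact permutation p from 0.0159 to 0.0635. The ratio of BTN2A2 to BTN3A3 ran from -1.25 to -0.61 in untreated libraries (exact p 0.0238 to 0.0952) and from -0.0592 to 0.27 in treated ones. Some signs turned, also for differences as large as 0.46 (BTN3A2, untreated log2 CPM) and -0.43 (BTN3A3, response by clone). Leaving out 1 clone gave BTN2A1 -0.19 to 0.0054 between treated and -0.17 to 0.0205 between untreated genotypes in edgeR (-0.19 to 0.0022 and -0.16 to 0.0199 on log2 CPM), and -0.12 to 0.0581 for the difference between responses (0.0086 with no filter, -0.12 to 0.0552 by clone). It gave BTN3A1 -0.0938 to 0.41 and BTN3A2 -0.0176 to 0.53 between untreated genotypes in edgeR (-0.28 to 0.64 and -0.23 to 0.92 on log2 CPM). For the difference between responses it gave BTN3A1 -0.14 to 0.33 and BTN3A2 -0.31 to 0.13 in edgeR, and BTN3A1 -0.22 to 0.56, BTN3A2 -0.57 to 0.35 and BTN3A3 -0.74 to 0.0840 by clone. Over all genes the calls with IFNγ were 585 in WT (976 with DESeq2, 1414 with the clone block) and 379 in clones labelled KO (819 with DESeq2, 608 with shrinkage, 642 over all 20 libraries, 721 with the clone block and 1208 with it and the exchange). Leaving out a clone lowers the power of a test, yet without KO replicate 2 the calls in clones labelled KO rose to 490. The cause of these shifts was not tested.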

Other observations

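Over the 10 untreated libraries, a likeness computed after the treated values were seen, the BTN3A genes went with genes of the interferon response. The 5 genes most like BTN3A1 were BTN3A2 (Pearson's r = 0.985, Spearman's rho = 0.939), OAS3 (0.983 and 0.903), LRRC9 (0.982 and 0.830), PSMB8 (0.980 and 0.673) and PARP10 (0.977 and 0.818). For BTN3A3 TRANK1 (0.985 and 0.952) and TLR3 (0.966 and 0.939) came first. Without the 2 libraries farthest from the median of BTN3A1 the r of BTN3A2 was 0.894 and that of PSMB8 0.435 over 8 libraries, so the latter rests on those libraries. These are descriptions over clones that share their preparation, with no test.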
